A study of Mus musculus with 21 samples.

Results

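Oxidative phosphorylation makes most of a respiring cell's ATP in the inner mitochondrial membrane. Complexes I and II feed in electrons, complexes III and IV pass them to oxygen, and complex V, the ATP synthase, uses the resulting proton gradient. Complexes I, III, IV and V each combine subunits encoded in the nucleus with a few encoded by mitochondrial DNA, whereas complex II is entirely nuclear. Long-term haematopoietic stem cells are known for relying little on respiration, and their progeny for relying on it more.

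The genes described here are the 101 of 28987 measured gene identifiers whose symbol marks a subunit of these complexes, with 6 pseudogene copies left out. Of them, 88 are nuclear and 13 mitochondrial. By symbol, the nuclear genes comprise 40 of complex I, 4 of complex II, 8 of complex III, 19 of complex IV and 17 of complex V. The mitochondrial genes comprise 7 of complex I, 1 of complex III, 3 of complex IV and 2 of complex V. Symbols do not always mark function: Ndufa4 is counted with complex I by its name, although its protein is now placed in complex IV, and Atp5s encodes a coupling factor rather than a core subunit.

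RNA of sorted mouse bone marrow cells was measured in 21 libraries, 3 in each of 7 groups. Of these, 15 libraries hold long-term stem cells (LT-HSC) and 6 hold multipotent progenitors (MPP, sorted as MPP3 and MPP4). All floxed groups carry alleles of Rxra and Rxrb, which encode the retinoid X receptors, nuclear receptors that pair with many others. Batch 1 holds LT-HSC and MPP of Rxrabfl/fl mice without Cre (floxed controls) and of VaviCre+Rxrabfl/fl mice (knockouts), where the Vav1 promoter drives Cre throughout blood cells. Batch 2 holds LT-HSC of Vav1Cre+WT mice (Cre controls, with no floxed allele), of Vav1Cre+Rxrabfl/fl mice (knockouts) and of Vav1Cre+Rxrabfl/fl Myclfl/+ mice, whose extra allele is written Mycl in the titles and Myc in the descriptions and is called the Myc allele here. Each library came from pooled animals, sex and age are not given in the labels used here, and the batches differ in the control genotype, so batch and control genotype cannot be told apart. Levels are rescaled TPM: the deposited TPM, a measure of transcript abundance that already accounts for gene length, divided by a factor per library that aligns the typical gene across libraries. Changes are log2 differences of rescaled TPM + 1.

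A gene was called changed at a Benjamini-Hochberg adjusted p under 0.05 in limma over all genes tested, and n is 3 libraries a group throughout. All 10 LT-HSC markers were called lower and all 8 MPP markers higher in MPP than in LT-HSC, in floxed controls and in knockouts. Rxrb was lower in the knockouts of batch 1, at 6.76 to 9.17 rescaled TPM against 11.4 to 15.1 in LT-HSC and 9.48 to 11.7 against 14.99 to 18.1 in MPP. In batch 2 it overlapped the Cre controls (10.2 to 14.6 against 13.1 to 14.95) in the libraries labelled knockout, and lay below them at 5.80 to 10.7 with the Myc allele. Rxra overlapped its LT-HSC controls in both batches for the libraries labelled knockout (2.10 to 2.78 against 2.52 to 5.86, and 1.44 to 9.65 against 3.88 to 4.53). It overlapped in MPP too (1.52 to 2.20 against 1.91 to 2.15), and lay below every Cre control with the Myc allele, at 2.57 to 3.70. A level summed over a gene does not show whether a floxed exon was lost. One identifier took 10.6 to 51.8% of the deposited scale of a library, most in floxed control LT-HSC 2, which is why levels were rescaled.

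Promoters of 68 of the 88 nuclear genes were matched in a RefSeq table of build GRCm38.p6, each 300 bases long (250 before the start and 50 after). They were searched on both strands for 5 short motifs of factors known to act on respiratory genes or on nuclear receptor targets. The core of NRF1, an activator of many respiratory genes (GCATGCGC), was found in 10 of 68, or 14.7%, against 3.05% of 27025 genes with a promoter and 5.79% of the 10451 of them at 1 rescaled TPM or more in at least 3 libraries. The ETS core bound by GABP (CCGGAAG) was found in 16 of 68 (23.5%, against 9.93% and 19.4%), and the YY1 core (ATGGCGG) in 10 of 68 (14.7%, against 4.69% and 9.11%). The E-box that MYC binds (CACGTG) was found in 6 of 68 (8.82%, against 8.09% and 11.5%), and the nuclear receptor half-site (AGGTCA) in 16 of 68 (23.5%, against 18.1% and 15.3%). The NRF1 core is nearly its own reverse complement, so both strands can match at overlapping positions, and a match of letters is not evidence of binding.

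To show what such promoters look like, the 150 bases before the start are printed for 4 of the genes that were higher in MPP than in LT-HSC of knockouts, 2 with a motif in this stretch and 2 without. They are written 5′ to 3′ on the gene's strand, with motifs in capitals.
Sdhb, chr4:140961121-140961270, plus strand: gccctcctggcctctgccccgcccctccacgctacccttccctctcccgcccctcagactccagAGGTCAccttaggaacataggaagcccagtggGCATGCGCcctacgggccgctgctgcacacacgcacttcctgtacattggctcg
Ndufb7, chr8:83566608-83566757, plus strand: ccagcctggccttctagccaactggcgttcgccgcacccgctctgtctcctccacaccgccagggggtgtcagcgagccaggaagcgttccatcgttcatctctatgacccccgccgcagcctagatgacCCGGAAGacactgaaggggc
Ndufa4, chr6:11907451-11907600, minus strand: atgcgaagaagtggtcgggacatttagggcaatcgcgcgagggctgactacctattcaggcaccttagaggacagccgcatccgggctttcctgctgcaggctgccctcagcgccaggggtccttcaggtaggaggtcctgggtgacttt
Ndufs8, chr19:3912775-3912924, minus strand: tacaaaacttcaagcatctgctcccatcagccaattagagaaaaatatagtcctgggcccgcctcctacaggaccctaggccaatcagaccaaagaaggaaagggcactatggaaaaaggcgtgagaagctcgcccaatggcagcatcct
In Sdhb the half-site begins 86 bases and the NRF1 core 54 bases before the start. In Ndufb7 the ETS core begins 20 bases before it.

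Most nuclear genes were measured well above zero. Of the 88, 77 reached 1 rescaled TPM in every library, and 6 stayed under 1 in every library: Ndufa4l2, Ndufs6b, Cox6c2, Cox8c, Cox7b2 and Atp5g2, of which Ndufs6b, Cox6c2 and Atp5g2 were listed at 0 in all 21. The highest was Atp5b, the catalytic beta subunit of ATP synthase, at 510.2 to 1413 rescaled TPM over the 21 libraries. Core subunits of complex I were lower, with Ndufs1, which carries iron-sulphur clusters, at 11.98 to 23.8, and Ndufv1, which binds NADH, at 26.5 to 67.4. The flavoprotein Sdha of complex II ranged from 54.0 to 99.9, the Rieske iron-sulphur protein Uqcrfs1 of complex III from 16.4 to 47.6, and the widely used complex IV isoform Cox4i1 from 148 to 434.5.

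The sums of the nuclear genes differed by complex, and their range over the 21 libraries was narrower than that of the mitochondrial genes below. Complex V summed to 2311 to 4763.7 rescaled TPM, complex I to 1690.4 to 3352.5, complex IV to 1425.9 to 3322.3, complex III to 657.6 to 1622 and complex II to 130.7 to 246.4. Some tissue-restricted isoforms of complex IV were low. The lung-type Cox4i2 reached 0.257 to 5.34, the muscle- and heart-type Cox7a1 0 to 10.8 and Cox8b 0 to 1.68.

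Mitochondrial transcripts were far more abundant and far more variable. Per length, mt-Co1, the catalytic subunit of complex IV, was highest at 4951 to 34870 rescaled TPM, and mt-Nd6, the one member read from the opposite DNA strand, was among the lowest at 254.2 to 1550. Each of the 13 spanned 6.10- to 8.97-fold between its lowest and highest library. Together they took 1.95 to 10.6% of the deposited scale.

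In batch 1 the 13 mitochondrial genes summed to 54837, 39837 and 66800 rescaled TPM in LT-HSC of floxed controls 1 to 3, and to 42986, 39426 and 39417 in LT-HSC knockouts 1 to 3. In MPP they summed to 39686, 41851 and 49713 in floxed controls and to 45269, 46117 and 38334 in knockouts. Floxed control LT-HSC alone covered nearly the whole range of these 12 libraries, and the knockouts overlapped their controls in both cell types.

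Batch 2 was much wider. The sums were 18287, 21978 and 26247 in Cre controls 4 to 6, then 61100, 74380 and 28391 in the libraries labelled knockout 4 to 6. With the Myc allele, replicates 1 to 3 gave 17979, 91442 and 128640. The Cre controls lay below every library of the other groups except Myc allele replicate 1, which lay below them, and knockout replicate 6 lay only just above them.

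The ratio of the mitochondrial to the nuclear sum does not depend on how a library is scaled. It was 5.63, 5.53 and 5.48 in floxed control LT-HSC and 4.65, 5.63 and 6.34 in LT-HSC knockouts of batch 1. It was 4.50, 4.57 and 4.76 in floxed control MPP and 3.85, 5.29 and 4.01 in MPP knockouts. In both cell types the knockouts spread around the controls.

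In batch 2 the ratio was 1.72, 2.11 and 2.40 in Cre controls, 5.10, 5.71 and 2.97 in the libraries labelled knockout, and 1.92, 7.82 and 13.99 with the Myc allele. The libraries labelled knockout all lay above the Cre controls, while those with the Myc allele lay both inside and above their range.

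**Figure D1:**
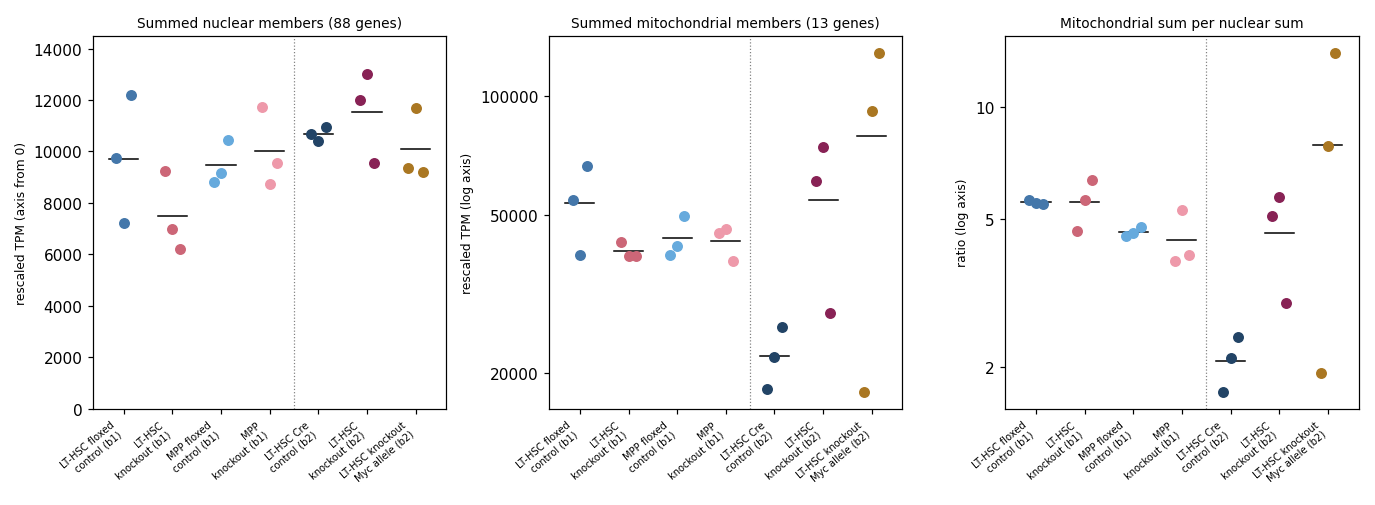
Summed rescaled TPM of the 88 nuclear genes (left, axis from 0), of the 13 mitochondrial genes (middle, log axis) and their ratio (right, log axis); each dot is a library, the bar is the mean of 3, b1 and b2 are batches 1 and 2. Nuclear sums stay between 6215.6 and 13020, whereas mitochondrial sums run from 17979 to 128640, with the widest spread in the Myc allele group.

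In LT-HSC of batch 1, nuclear genes were mostly lower in knockouts, but few were called. Their sums overlapped, at 9732, 7205.8 and 12184 rescaled TPM in floxed controls 1 to 3 and 9251.6, 6997.9 and 6215.6 in knockouts 1 to 3. Of 82 tested, 75 had a change below zero, with a median of -0.31 against -0.02 for all genes, and 2 were called lower and 0 higher, or 2.44% against 2.7% of all genes called lower. The called pair was Ndufs1 of complex I and Uqcrc2, a core subunit of complex III. Complex III had the lowest median, -0.50 over 8 genes, and complexes I, II, IV and V had medians of -0.27, -0.27, -0.32 and -0.33.

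Ndufs1 (chromosome 1, 63143592 to 63176822) read 17.9, 20.9 and 23.1 rescaled TPM in floxed controls and 14.6, 13.7 and 12.2 in knockouts, with no overlap. It fell by 0.57 on the log2 scale (SE 0.13, limma adjusted p = 0.0335). Uqcrc2 (chromosome 7, 120635189 to 120659523) read 67.4, 73.2 and 72.7 against 53.3, 46.9 and 40.9, again with no overlap, and fell by 0.59 (SE 0.15, limma adjusted p = 0.0468). In all, 7 of 82 nuclear genes had every knockout below every control, against 13.2% of all genes, so the share was not above the background.

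Both calls depended on the scale. The deposited TPM scale differs by 1 factor per library, which raised all genes in this comparison alike: their median was 0.52, and 45.2% of them were called. There the nuclear median was 0.31, 2 genes were called higher, and Ndufs1 and Uqcrc2 stood at 0.021 and 0.025 (limma adjusted p = 0.922 and 0.916), still below the median of all genes. The number called lower also moved with single libraries: 0 without floxed control 3, knockout 2 or knockout 3, 1 without floxed control 1, and 7 without knockout 1. Without floxed control 2 the number was again 2, but the genes were Uqcrc1 and Uqcrfs1. Of 12 alternatives, 5 kept the call of Ndufs1 and 3 that of Uqcrc2. Erythroid markers moved in the same comparison, with 7 of 12 called lower (6 on the deposited scale) and a summed level of 250.4 to 359.2 rescaled TPM in knockouts against 509.7 to 939.9 in controls, and neutrophil markers summed to 113.7 to 990.8 against 38.1 to 93.4. B cell markers summed to 251.4 to 782.9 against 16.2 to 219.8. Most of the knockout sum was Igkc, at 237.5 to 748.7 against 1.44 to 206.6 in controls. Of the markers tested, 0 of 7 B cell and 0 of 8 neutrophil markers were called. On the deposited scale 2 and 5 were called higher, against 44.6% of all genes. Of 10 LT-HSC markers 3 were called higher, Hoxb5, Vwf and Slamf1, and 0 lower. Of 8 MPP markers 1 was called higher, Plac8, and 2 lower, Flt3 and Satb1. Cd68, 1 of 7 monocyte and dendritic cell markers, and Prg2, 1 of 7 mast, basophil and eosinophil markers, were also called higher. Over all genes, 2.35% were called higher and 2.7% lower. On the deposited scale 9 LT-HSC and 3 MPP markers were called higher and 0 lower. The 3 knockout libraries also had more genes at 1 deposited TPM or above, 13923 to 14870, than any other library (at most 13844). Their part in the result was not tested, and in bulk samples fewer cells of a type and less RNA per cell cannot be told apart.

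All 13 mitochondrial genes also had changes below zero in LT-HSC knockouts of batch 1, with a median of -0.44 and a range of -0.62 to -0.24, and 0 were called in limma (4 at an unadjusted p under 0.05, lowest adjusted p = 0.11). For 5 of 13, mt-Nd1, mt-Nd2, mt-Nd4, mt-Nd6 and mt-Co3, every knockout lay below every control, or 38.5% against 13.2% of all genes. The largest change was in mt-Nd1, a membrane subunit of complex I, at 3512, 2831 and 5318 rescaled TPM in controls and 2660, 2343 and 2339 in knockouts. Its change was -0.62 (SE 0.24, limma adjusted p = 0.127). On the deposited scale the 13 had a median of 0.19, below the 0.52 of all genes. The 13 genes are read from long shared precursor transcripts in the same libraries and are not 13 independent measurements.

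In MPP the knockout left no called member. Over 82 nuclear genes the median change was 0.09 against 0.01 for all genes, 66 were above zero, and limma called 0 (0 at an unadjusted p under 0.05), while 0.59% of all genes were called. The 13 mitochondrial genes had a median of 0.00 and a range of -0.18 to 0.05, and 0 were called (0 unadjusted). Uqcrc2, for example, read 51.5, 49.6 and 69.2 rescaled TPM in floxed control MPP and 65.1, 48.9 and 56.6 in knockouts, and the groups overlapped.

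The difference of the knockout effect between MPP and LT-HSC was tested itself. It was called for 0 of 82 nuclear genes (7 at an unadjusted p under 0.05) and 0 of 13 mitochondrial genes (0 unadjusted), against 0.0275% of all genes. The lowest adjusted p among members was that of Ndufs1, with an effect 0.72 higher in MPP (SE 0.18, limma adjusted p = 0.235). The effect was thus not shown to differ between the cell types in this fit, which took no account of the animal pools that LT-HSC and MPP share.

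Between cell types the plainest difference was an isoform that LT-HSC barely had. Cox6a2, the heart- and muscle-type isoform of complex IV subunit VIa (chromosome 7, 128205435 to 128206366), read 0.234, 0 and 0.098 rescaled TPM in floxed control LT-HSC and 10.1, 9.48 and 6.97 in floxed control MPP. In knockouts it read 0, 0 and 0.0498 in LT-HSC and 16.3, 7.48 and 10.8 in MPP. All 15 LT-HSC libraries of both batches were at 0.234 or below, and all 6 MPP libraries at 6.97 or above.

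The change of Cox6a2 from LT-HSC to MPP was 3.14 in floxed controls and 3.56 in knockouts (SE 0.23 in both). It reached the minimum of 1 rescaled TPM in the 6 MPP libraries alone, so it entered the test only through the group where it is high, and its calls below are a description. With no filter on low values it was called in both genotypes too (limma adjusted p = 2.63e-05 in floxed controls). Its ubiquitous counterpart Cox6a1 was at 209.5 to 505.6 over the 21 libraries, so Cox6a2 remained a small part of this subunit's RNA. Markers of other cell types also differed between the sorts: B cell markers summed to 2054 to 11180 rescaled TPM in floxed control MPP and 16.2 to 219.8 in LT-HSC. Most of the MPP sum was Igkc, while Cd79a was at 1.04 to 2.05 in MPP. In MPP of floxed controls, 5 of 7 monocyte and dendritic cell markers and 5 of 8 T and NK cell markers were called higher. So were 3 of 7 B cell markers, 3 of 7 mast, basophil and eosinophil markers and 1 of 8 neutrophil markers. Lower were 10 of 12 erythroid markers, 1 T and NK cell marker and 1 mast, basophil and eosinophil marker, against 24.3% of all genes called in either direction. Their part in the Cox6a2 difference was not tested.

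Ndufa4 (chromosome 6, 11900372 to 11907450) was the other nuclear gene called higher in MPP of floxed controls. It read 276, 209 and 325 rescaled TPM in LT-HSC and 460, 463 and 508 in MPP of floxed controls, a rise of 0.84 (SE 0.20, limma adjusted p = 0.00836). In knockouts it read 278, 204 and 176 against 496, 366 and 419, a rise of 0.97 (SE 0.20, limma adjusted p = 0.00353). In both genotypes every MPP library lay above every LT-HSC library, including the 9 LT-HSC libraries of batch 2, where it ranged from 133 to 252.

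In floxed controls Cox6a2 and Ndufa4 were the only 2 of 82 nuclear genes called, or 2.44%, against 12.1% of all genes called higher, and 0 were called lower. The median nuclear change was -0.05, and the mitochondrial median was -0.31, with all 13 below zero and 0 called (1 at an unadjusted p under 0.05, lowest limma adjusted p = 0.0969). LT-HSC and MPP of batch 1 came from the same animal pools. With the pool as a block, 6 nuclear genes were called, of which Ndufa5, Ndufb9, Ndufv3 and Cox6b2 were lower in MPP, and 1 mitochondrial gene, mt-Nd6, fell by 0.35 (limma adjusted p = 0.038), against 28% of all genes. The share of members called thus stayed well under the background in both fits. Without floxed control LT-HSC 1 or LT-HSC 2, 4 nuclear genes were called, and without floxed control MPP 3, 1 mitochondrial gene was called.

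In knockouts the nuclear genes lay higher in MPP. Of 82, 75 had a change above zero with a median of 0.35 against 0.03 for all genes, and 9 were called higher and 0 lower, or 11.0% against 12.1% of all genes called higher. Every MPP knockout lay above every LT-HSC knockout for 24 of 82, or 29.3%, against 23.8% of all genes. The LT-HSC knockouts used here are the ones that read lower than floxed controls above, so the comparisons share these libraries.

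The 9 called genes span complexes I, II, IV and V. Besides Cox6a2 and Ndufa4, Cox5a, a nuclear-encoded subunit close to the core of complex IV (chromosome 9), read 132, 99.5 and 90.3 rescaled TPM in LT-HSC knockouts and 232, 174 and 194 in MPP knockouts, and rose by 0.90 (SE 0.21, limma adjusted p = 0.00744). Atp5b (chromosome 10) read 875, 712.8 and 586.4 against 1324, 995.6 and 1101, and rose by 0.66 (SE 0.22, adjusted p = 0.0459). Neither overlapped between the groups.

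Atp5o, part of the stalk that holds ATP synthase together, read 134, 102 and 84.1 rescaled TPM in LT-HSC knockouts against 198, 141 and 163 in MPP knockouts, a rise of 0.66 (SE 0.21, limma adjusted p = 0.0418). Sdhb, the iron-sulphur subunit of complex II, read 32.5, 27.3 and 20.3 against 48.0, 34.2 and 39.1, a rise of 0.59 (SE 0.18, adjusted p = 0.0349). All MPP values of both genes lay above all LT-HSC values. The complex I genes Ndufb7, Ndufs8 and Ndufs1 rose by 0.62, 0.60 and 0.44 (SE 0.21, 0.17 and 0.13, limma adjusted p = 0.0435, 0.0227 and 0.026).

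These calls also moved with the fit. With the animal pool as a block, 28 nuclear genes were called, all higher, or 34.1% against 15.2% of all genes called higher and 28.5% called in either direction. On the deposited scale, where 19.5% of all genes were called, Cox6a2 alone was. Between 3 and 4 were called without LT-HSC knockout 2, LT-HSC knockout 3, MPP knockout 1 or MPP knockout 3, and 18 without LT-HSC knockout 1. No mitochondrial gene was called in this comparison (0 unadjusted), and their median was 0.08, or -0.18 on the deposited scale.

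**Figure D2:**
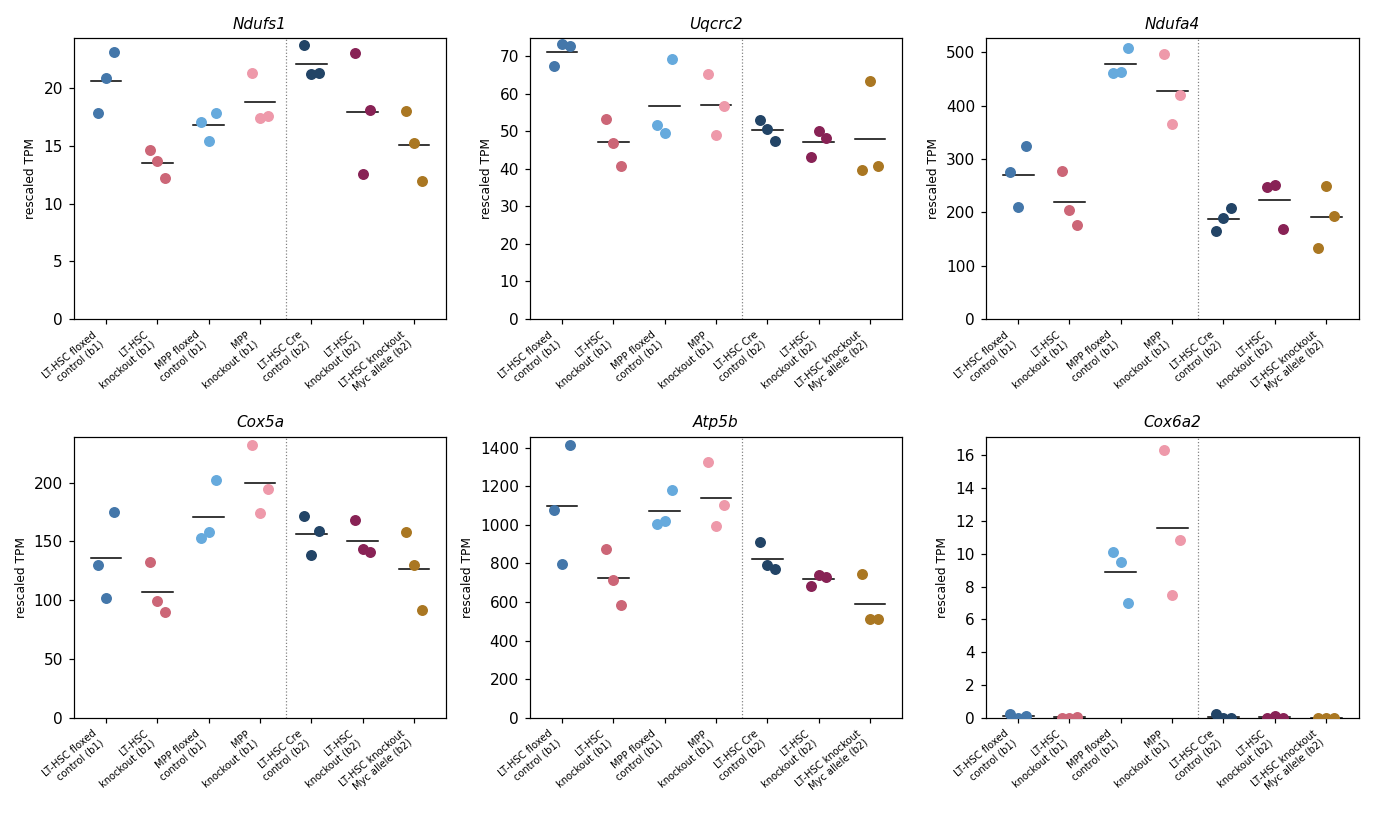
Rescaled TPM (axis from 0) of 6 nuclear genes in the 21 libraries; each dot is a library, the bar is the mean of 3, b1 and b2 are batches 1 and 2. Ndufs1 and Uqcrc2 read lower in LT-HSC knockouts of batch 1 than in their controls, Ndufa4 is higher in MPP than in all LT-HSC groups, and Cox6a2 is at 0.234 or below in every LT-HSC library.

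In batch 2 the mitochondrial genes read higher in the libraries labelled knockout than in Cre controls, without any call. All 13 had changes above zero, with a median of 1.24 and a range of 1.09 to 1.89, while the 79 nuclear genes tested had a median of 0.05 and all genes -0.02. Limma called 0 mitochondrial (2 at an unadjusted p under 0.05) and 0 nuclear genes (1 unadjusted), against 0.0592% of all genes. For 8 of 13 mitochondrial genes every library labelled knockout lay above every Cre control, against 8.46% of all genes. The groups overlapped for mt-Nd2, mt-Nd5, mt-Nd6, mt-Co2 and mt-Atp8.

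The difference was clearest in mt-Nd3, a small complex I subunit, at 695.0, 727.7 and 485.4 rescaled TPM in Cre controls and 2806, 3523 and 1262 in the libraries labelled knockout, a change of 1.89 (SE 0.59, limma adjusted p = 0.936). Replicate 6 lay nearer to the controls than the other two. In mt-Co1, replicates 4 to 6 read 15620, 19030 and 8088 against 5232, 6801 and 7007, a change of 1.09 (SE 0.61, adjusted p = 0.936). Without replicate 6 the changes were 2.33 in mt-Nd3 and 1.45 in mt-Co1, and still 0 were called.

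**Figure D3:**
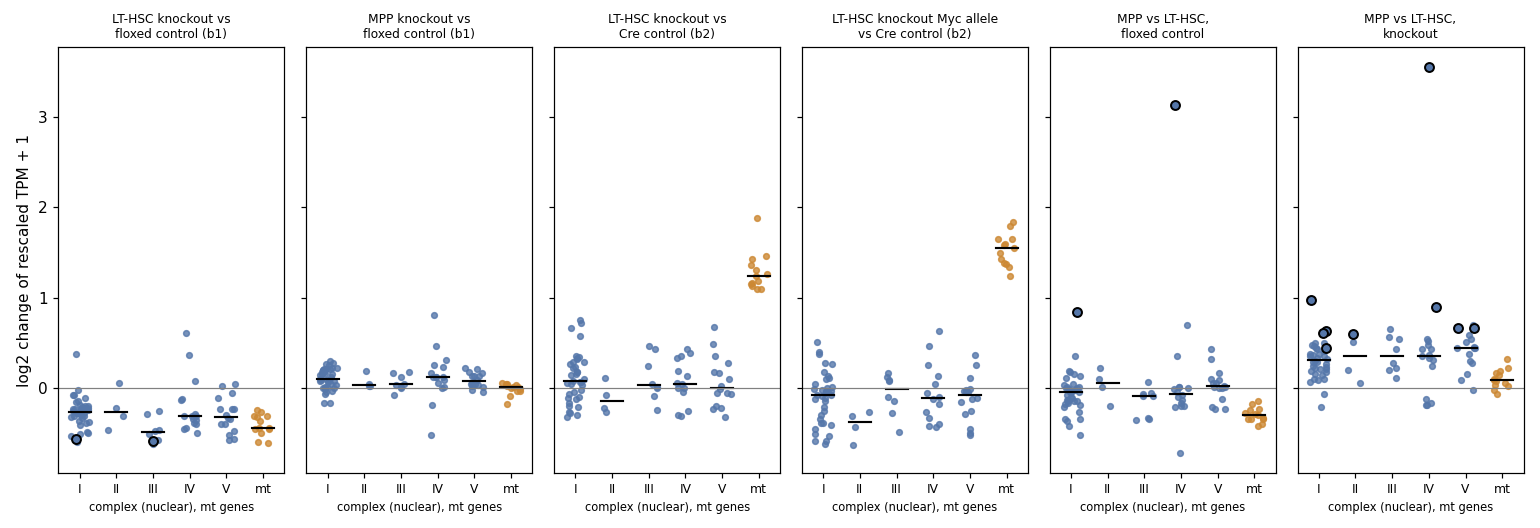
Log2 change of each gene (dot) in 6 comparisons, with nuclear genes in blue by complex (I to V) and mitochondrial genes in orange (mt); black bars are medians, outlined dots passed the adjusted threshold, b1 and b2 are batches 1 and 2. The mitochondrial genes lie below zero in LT-HSC knockouts of batch 1 (median -0.44) and above zero in both comparisons with Cre controls of batch 2 (medians 1.24 and 1.56), where 0 were called.

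The libraries with the Myc allele were the most uneven. Against Cre controls all 13 mitochondrial genes had changes above zero with a median of 1.56, and limma called 0 of them (10 at an unadjusted p under 0.05, lowest adjusted p = 0.523), against 0.0814% of all genes. Of 79 nuclear genes 0 were called (13 unadjusted), the median was -0.10, and 14 had every Myc allele library below every Cre control, or 17.7% against 9.37% of all genes. In mt-Cytb, the mitochondrial subunit of complex III, the Myc allele replicates read 1462, 7454 and 9742 rescaled TPM against 1403, 1514 and 1832 in Cre controls. Replicate 1 thus read like a control and the other two several times higher.

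Replicate 1 decided these calls. Without it, all 13 mitochondrial genes were called higher in limma, with changes of 2.10 to 2.74, against 5.91% of all genes called in either direction. Of the nuclear genes, 5 were called lower, Ndufa10, Sdhc, Atp5a1, Atp5b and Atp5d, a share near that background. Atp5b, the gene with the highest nuclear level, read 747.1, 513.7 and 510.2 with the Myc allele and 913.1, 790.4 and 771.1 in Cre controls, and fell by 0.68 without replicate 1 (limma adjusted p = 0.0348). With all 3 replicates its change was -0.50 (SE 0.18, adjusted p = 0.523). In this group the identifier that takes a large part of the scale stood at 30.5, 15.7 and 10.6% in replicates 1 to 3, in the opposite order to the mitochondrial sums. Its part in the result was not tested.

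Against the libraries labelled knockout of the same batch, the Myc allele gave 0 calls among nuclear genes (8 at an unadjusted p under 0.05) and mitochondrial genes (0 unadjusted) in limma, with 0% of all genes called. Medians were -0.22 and 0.25. Without knockout replicate 6 the 13 mitochondrial changes ran from -0.68 to -0.04, and without Myc allele replicate 1 from 0.56 to 1.31. The median also turned to -0.03 without Myc allele replicate 2 and to -0.23 without replicate 3.

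Over both batches, with batch as a term, the LT-HSC knockout effect was called by limma for 0 of 80 nuclear genes (9 at an unadjusted p under 0.05) and 0 of 13 mitochondrial genes (0 unadjusted), with 0% of all genes called. Ndufs1 had a pooled change of -0.45 (SE 0.14, adjusted p = 0.111), Uqcrc1 -0.44 (SE 0.14, adjusted p = 0.128) and Uqcrc2 -0.34 (SE 0.11, adjusted p = 0.129). Uqcrc2 overlapped between the groups in batch 2, at 43.2, 50.1 and 48.2 rescaled TPM against 53.1, 50.5 and 47.3. The pooled mitochondrial median was 0.43, which averages a median of -0.44 in batch 1 and 1.24 in batch 2.

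The difference of the LT-HSC knockout effect between batches had a median of 1.64 over the mitochondrial genes and 0.39 over the nuclear ones. All 13 mitochondrial genes had an unadjusted p under 0.05, and 0 were called in limma (lowest adjusted p = 0.102, in mt-Nd3), against 0.14% of all genes. Among nuclear genes 0 of 80 were called (10 unadjusted). With the replicate number as a block mt-Nd3 was called (limma adjusted p = 0.0447), against 0.112% of all genes. Knockouts and controls share only replicate numbers, not animal pools, so that block pairs libraries with no stated link. Without knockout replicate 6 of batch 2, 11 of 13 were called, against 0.989%. The controls of the batches differ in Cre and in the floxed alleles, so this difference cannot be assigned to the batch or to the control genotype.

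The make-up of the mitochondrial RNA set the batches apart within each library, where no scaling enters. As a share of the 13-gene sum, mt-Co1 took 19.8 to 21.5% in the 6 LT-HSC libraries of batch 1 and 25.6 to 30.9% in the 9 of batch 2. mt-Nd6 took 0.834 to 1.16% against 1.21 to 1.62%, and mt-Nd5 2.38 to 2.75% against 2.91 to 3.86%. These 3 had every batch 2 library above every batch 1 LT-HSC library.

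Another 4 genes took the opposite course, with every batch 2 library below. Shares of 1 sum are tied, and a larger share of mt-Co1 leaves less for the others, so these falls are not separate results. mt-Nd1 took 5.93 to 7.96% in batch 1 and 3.73 to 4.85% in batch 2, and mt-Atp8, a small ATP synthase subunit, 9.22 to 10.6% against 4.798 to 7.47%. mt-Atp6 took 11.6 to 12.4% against 8.64 to 10.9%, and mt-Nd4 4.29 to 4.71% against 3.42 to 4.07%. The ratio of mt-Nd1 to mt-Nd6 was 5.65 to 9.55 in LT-HSC of batch 1, 7.52 to 8.59 in MPP of batch 1 and 2.59 to 3.98 in batch 2.

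This make-up did not follow the amount. Cre controls and Myc allele replicate 1, with the 4 lowest sums, and Myc allele replicates 2 and 3, with the 2 highest, shared the batch 2 make-up, and the knockouts of both batches had that of their own batch. MPP and LT-HSC of batch 1 overlapped in the share of mt-Co1, at 19.1 to 21.9% in MPP. Among nuclear genes, levels in LT-HSC of batch 2 lay above all LT-HSC of batch 1 for 2 of 80, Cox4i1 and Ndufa13, against 2.35% of all genes, and below for 0 of 80, against 0.938%. Among mitochondrial genes, levels lay above for 0 of 13 and below for 0 of 13, so the batches differed in shares and not in separate levels. Cox4i1 read 296 to 434.5 rescaled TPM in batch 2 and 148 to 269 in batch 1.

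**Figure D4:**
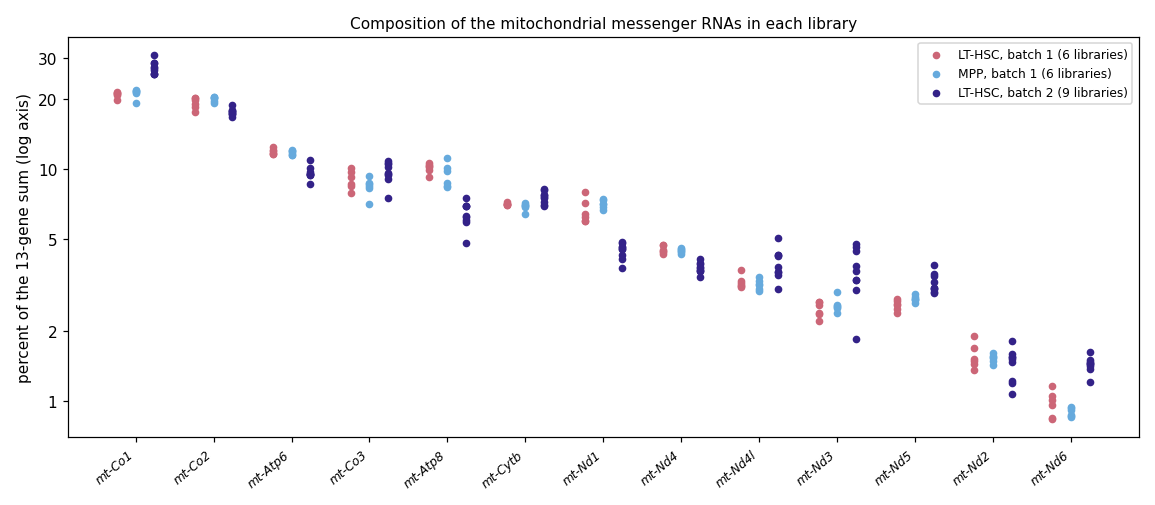
Percent of the summed mitochondrial messenger RNA taken by each of the 13 genes (log axis); each dot is a library, coloured by cell type and batch. mt-Co1, mt-Nd5 and mt-Nd6 take more and mt-Nd1, mt-Nd4, mt-Atp6 and mt-Atp8 less in the 9 LT-HSC libraries of batch 2 than in the 6 of batch 1, and MPP of batch 1 lie with LT-HSC of batch 1.

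Splicing was deposited as percent spliced in (PSI), the fraction of reads at a junction that take one form. Of 46443 events, each a pair of junctions, 49 lay in 20 of these genes, 21 of them of the intron retention type. Several of these 21 cover the same intron, from either end or as its spliced junction. None of the 44 member events tested in batch 1 or the 42 in batch 2 was called in limma in any of 7 comparisons (adjusted p under 0.05 and a PSI difference of at least 0.1), with 0 to 3 at an unadjusted p under 0.05 in each. In batch 1, 0.166% and 0.199% of all events were called for the knockout in LT-HSC and MPP, and 0.486% and 0.305% between cell types in floxed controls and knockouts. In batch 2, 0.0389% were called for knockout against Cre control, 0.0141% for the Myc allele against knockout and 0.0318% for it against Cre control.

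The nearest in batch 1 was retention of intron 3 in Ndufv2, which encodes an iron-sulphur subunit of complex I. Its PSI was 0 in all 3 floxed control LT-HSC and 0.141, 0.169 and 0.339 in knockouts (limma adjusted p = 0.218). In Cox6c, intron 2 retention stood at 0.267, 0.25 and 0 in the batch 2 libraries labelled knockout, 0, 0.0559 and 0 in Cre controls and 0 in all 3 with the Myc allele. Without knockout replicate 6, that event, its reciprocal junction and intron 3 of Ndufs3 were called against both other groups, where 0.416% of all events were called against Cre controls and 0.504% against the Myc allele.

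Genes around the respiratory chain were read from lists by role. In LT-HSC knockouts of batch 1, 2 of 17 enzymes of the tricarboxylic acid cycle were called lower, Dlst at -0.64 (SE 0.16) and Pdha1 at -0.59 (SE 0.13). Tufm, which brings transfer RNA to the mitochondrial ribosome, was the 1 of 31 genes of mitochondrial DNA expression and upkeep called lower, at -0.71 (SE 0.18). Yy1, a transcription factor, was the 1 of 13 regulators of respiration called lower, at -0.53 (SE 0.12). Of 79 mitochondrial ribosomal proteins 1 was called higher, Mrpl48 at 0.62 (SE 0.16). Of 51 assembly factors and 11 carriers of electrons and nucleotides 0 were called. Over all genes, 2.7% were called lower and 2.35% higher. On the deposited scale the 4 genes called lower stood between -0.11 and 0.08, and none was called. That scale called 20 of 51 assembly factors, 11 of 31 genes of mitochondrial DNA, 11 mitochondrial ribosomal proteins, 4 of 13 regulators, 3 of 17 cycle enzymes and 3 of 11 carriers higher, against 44.6% of all genes.

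Between MPP and LT-HSC of knockouts, 11 of 79 mitochondrial ribosomal proteins were called higher and 0 lower, or 13.9% against 12.1% of all genes called higher, led by Mrpl12 at 0.82 (SE 0.21), Mrps28 at 0.81 (SE 0.24) and Mrpl18 at 0.79 (SE 0.22). So were 4 of 17 cycle enzymes (23.5%), with Dlst at 0.56 (SE 0.16), Suclg1 at 0.46 (SE 0.12) and Idh3g at 0.45 (SE 0.15). Of 11 carriers 2 were called higher (18.2%), Slc25a5, an ADP/ATP exchanger, at 0.93 (SE 0.22) and cytochrome c, Cycs, at 0.60 (SE 0.15). Of 31 genes of mitochondrial DNA expression and upkeep 2 were called higher, and of 51 assembly factors 0 were called. None of these lists held a gene called higher on the deposited scale in this comparison. In floxed controls 1 of 79 mitochondrial ribosomal proteins was called higher in MPP and 1 lower. There, 0 of 17 cycle enzymes and 0 of 11 carriers were called, against 24.3% of all genes called in either direction.

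Of 13 regulators of respiration, 3 were called between the cell types in floxed controls and 2 in knockouts, or 23.1% and 15.4% against 24.3% and 23.7% of all genes called in either direction. Myc, a transcription factor known to raise ribosome and mitochondrial gene expression, was higher in MPP by 0.55 in floxed controls (SE 0.17, limma adjusted p = 0.029) and by 1.41 in knockouts (SE 0.17, adjusted p = 6.7e-05). Gabpb1, the partner subunit of the ETS factor GABP, was higher by 0.40 and 0.52 (SE 0.12 in both), but not called in knockouts on the deposited scale (adjusted p = 0.329). Ppargc1a, a co-activator of mitochondrial biogenesis, fell by 0.80 from LT-HSC to MPP of floxed controls (SE 0.19, limma adjusted p = 0.00961), at 1.58 to 2.09 rescaled TPM in MPP and 2.54 to 5.18 in LT-HSC. On the deposited scale its change was -0.59 and was not called (adjusted p = 0.0784). In knockouts Ppargc1a read 1.36 to 2.17 in MPP and 2.05 to 2.24 in LT-HSC, and the groups overlapped. Of 51 assembly factors, 1 was called higher in MPP of floxed controls, Foxred1 (0.43, SE 0.13), and 1 lower, Ndufaf1 (-0.39, SE 0.13). This was well under the 24.3% of all genes called in either direction. Ndufaf1 was at -0.14 and not called on the deposited scale (limma adjusted p = 0.63). None of the 6 lists held a called gene for the knockout in MPP or for knockout against Cre control in batch 2.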

How the data were processed

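Expression was analysed from the deposited TPM per gene; per the submitters' processing notes, kallisto, STAR 2.6 and mouse build mm10 were used, with no kallisto version or transcript set named. Splicing was analysed from the deposited PSI, a fraction from 0 to 1 per junction pair, whose caller is not given in the sources used here. Per the labels' protocols, 5 ng of RNA from sorted cells of pooled animals was amplified with the Ovation RNA-seq v2 kit and made into Nextera XT libraries. The depth of each library is unknown from TPM, so no counting interval was computed. Whether replicates are separate pools of animals is given only by their identifiers, so p-values measure the spread between these libraries.

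Deposited TPM was divided by a median-of-ratios factor over 14964 genes above 0 in all 21 libraries. With limma 3.58.1 (trend) in R 4.3.3, the genes that reached 1 rescaled TPM in 3 or more of the libraries fitted were tested on log2(rescaled TPM + 1), a scale that understates changes of low genes. All groups of a batch shared 1 fit, comparisons across batches used the LT-HSC controls and knockouts, and p-values were adjusted over all genes. The script was tested on simulated data. Genes were named by a rule: all mitochondrial genes, a fixed set of core subunits and isoforms, and the called genes with the largest changes in each complex. The genes and lists were chosen with earlier results of these data known. Alternatives were the deposited scale, quantile normalization, a pseudocount of 0.1, no filter, only the 2 groups compared, a replicate block, a PSI difference of 0.2, and leaving out each library.

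The descriptions give LT-HSC and MPP of batch 1 the same pool identifiers, which pairs them. Deviations from the group mean correlated across genes at 0.54, 0.16 and 0.27 in the knockout pairs and at 0.08, 0.05 and 0.08 in the floxed control pairs. Libraries of unlike pools correlated at -0.41 to 0.228 in knockouts and at -0.139 to 0.074 in floxed controls. The knockout pair at 0.16 thus lay below the highest unmatched value. Deviations from a shared mean of 3 libraries are tied, so these values are not independent. Gene positions and promoters are from RefSeq, GRCm38.p6. Promoters were matched by gene number, and genes without an entry were not searched.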

Additional observations from a re-analysis of the deposited data

How the results depend on the processing

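The 2 genes called lower in LT-HSC knockouts of batch 1 changed sign on the deposited TPM scale, Ndufs1 to 0.021 and Uqcrc2 to 0.025. That scale shifts all genes of a library alike by its construction, and both genes stayed below its median of all genes, 0.52. In that comparison the number of nuclear genes called, 2 in the fit as described, was 1 with quantile normalization, 0 with no filter, 0 with only the 2 groups and 0 to 7 with single libraries left out. Between MPP and LT-HSC of floxed controls, nuclear calls went from 2 to 11 with quantile normalization (2 higher and 9 lower in MPP, with 24% of all genes called), 6 with the replicate block and 2 to 4 with single libraries left out, and mitochondrial calls from 0 to 2 (both lower), 1 and 0 to 1. In knockouts, nuclear calls went from 9 to 1 on the deposited scale, 5 with quantile normalization, 5 with no filter, 14 with only the 2 groups, 28 with the replicate block and 3 to 18 with single libraries left out. With single libraries left out, calls for the Myc allele against Cre controls ran from 0 to 5 (nuclear) and 0 to 13 (mitochondrial). The difference between batches had 0 to 11 mitochondrial calls with single libraries left out and 1 with the replicate block. Member splice events ran from 0 to 3 for knockout against Cre control and 0 to 3 for the Myc allele against knockout. The causes of these moves were not tested. Knockout and control share only replicate numbers: their deviations correlated at -0.14 to 0.28 for equal numbers, and the replicate block called 3 nuclear genes in LT-HSC of batch 1, adding Uqcrc1. No paired analysis was possible for the Myc allele because it shares no replicate number with the other groups of batch 2.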
